A study of Mus musculus with 6 samples.

Results

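The EGF family ligands and ERBB receptors were described here as 10 genes, taken by symbol from the 20756 genes of the deposited table. They comprised 6 ligand genes (Tgfa, Areg, Ereg, Hbegf, Btc and Epgn), 3 receptor genes (Egfr, Erbb2 and Erbb3) and Errfi1, which encodes an inhibitor of the receptors. All 10 were in the table, and 8 were abundant enough to test. The samples were mouse cells of strain C57BL/6 that the labels call MTO without spelling it out. Their genotype was sgC in 3 samples and sgPrkci/Prkcz in 3, after the genes of both atypical protein kinase C isoforms. No sample was treated, and both genotypes grew in a medium with B-27 and 50 ng per ml of human EGF, so an added EGF receptor ligand was common to all 6. Whether a genotype was 1 clone or a pool of edited cells is not given in the sources used here.

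EGF family ligands are made as membrane-bound precursors, and metalloproteases release their EGF-like part. Transforming growth factor alpha, amphiregulin and epigen bind the EGF receptor, while heparin-binding EGF-like growth factor, betacellulin and epiregulin also bind ERBB4. ERBB2 has no known ligand of its own and ERBB3 has little kinase activity, and both signal in pairs with other family members. In gut epithelium these signals maintain the growth of the crypts, and organoid cultures are commonly given EGF.

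The libraries were 3′ tag libraries, and the values are CPM, reads per 1000000 reads assigned to genes. A transcript gives about 1 tag whatever its length, so levels of different genes are compared here as 3′ tags. Depth followed genotype: sgC libraries held 2821908 to 3048170 reads and sgPrkci/Prkcz libraries 1543826 to 1808292. Differences are given as log2(CPM + 1) in sgPrkci/Prkcz less that in sgC, a scale on which changes of low genes come out too small. Over all 12207 genes tested the median was -0.17, so a gene at 0 on this scale lay above the typical gene. A gene was called at a Benjamini-Hochberg adjusted p under 0.05 with limma, and by that rule 11.4% of tested genes rose and 23.8% fell. Of the targeted genes, Prkcz went from 19, 17 and 14 reads to 7, 3 and 1 (log2 fold change -1.24; limma, Benjamini-Hochberg adjusted p = 0.00967), and Prkci from 139, 166 and 180 to 97, 98 and 83 (0.00; adjusted p = 0.986). Tags at the 3′ end need not report an edit elsewhere in the gene. The 8 epithelial markers, among them Epcam, Cdh1, Krt8 and Elf3, summed to 3583 to 4104 CPM in sgC and 4009 to 4393 CPM in sgPrkci/Prkcz. Singly, 3 of the 8 rose and 1 fell (37.5% and 12.5%), and Elf3 is also in the list of ERK-dependent genes below. Of 10 fibroblast markers 8 were in the table, and of 6 endothelial markers 4. These fibroblast markers summed to at most 2.35 CPM and these endothelial markers to at most 0.670 CPM in any sample, and Lum, Acta2, Fap, Pecam1 and Cdh5 had 0 reads. Of 10 leukocyte markers 5 were in the table, and they summed to 5.91 to 7.71 CPM in sgC and 8.85 to 14.25 CPM in sgPrkci/Prkcz, mostly from Cd68. Their part in the results below was not tested. In bulk samples, fewer cells of a type and less RNA per cell cannot be told apart.

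Of the 8 tested members, 4 rose in sgPrkci/Prkcz: the ligand genes Tgfa, Hbegf and Btc and the receptor gene Erbb2. That is 50% of the tested members, against 11.4% of all tested genes. None fell with limma (0 called, 0 by edgeR and 0 at unadjusted p below 0.05), against 23.8% of all tested genes. Each tested member was above the 1 CPM minimum in all 6 samples, so the filter did not favour a genotype. The median log2 fold change of the 8 was 0.32, against -0.17 for all genes. Erbb3 and Errfi1 were called as well once the median change of all genes was set to 0, which made 6 risen of 8 against 17.4% of all genes. The edgeR test on recovered reads called 6 too, against 19.9% of its 9842 genes. Risen members numbered 5 with chromosome medians set to 0 (background 16.1%), 5 with TMM-scaled CPM (15.5%), 5 with DESeq2 (12.3%), 4 with quantile normalization (15.3%) and 2 with limma without trend (7.45%). Under these 7 settings 0 members fell, against backgrounds of 14.4%, 18.2%, 13.1%, 17.6%, 8.89%, 15.9% and 16.2% in the same order. For 4 members the samples of the genotypes did not overlap, all with sgPrkci/Prkcz higher, and 15.0% of tested genes separated in that direction, against 30.0% in the other.

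**Figure D1:**
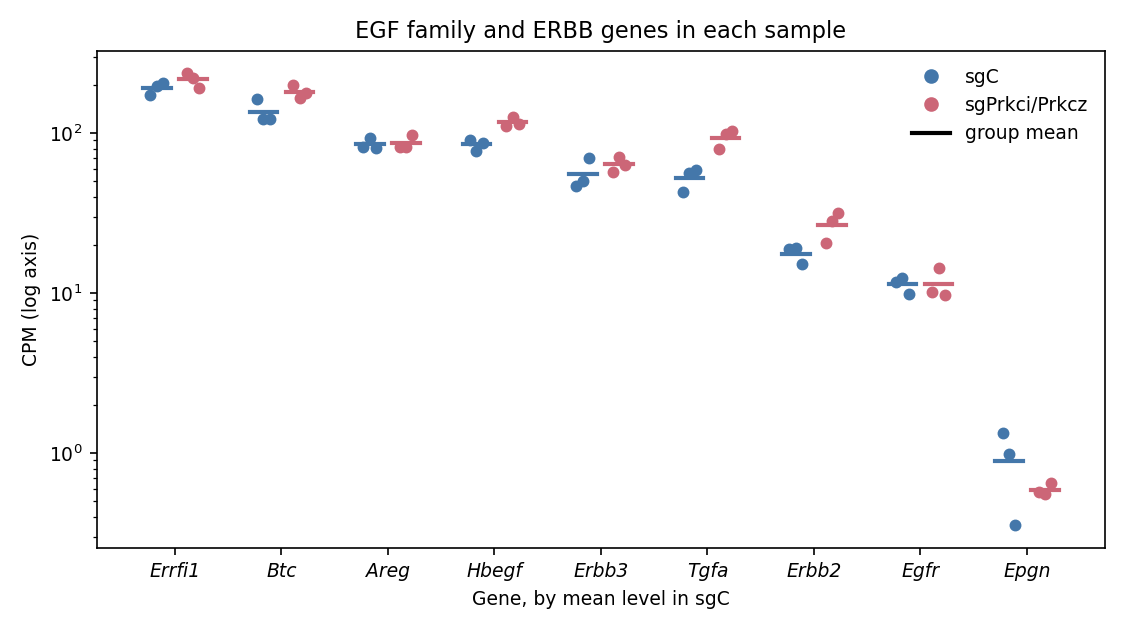
CPM of 9 of the 10 genes in each of the 6 samples, on a log axis, with a bar at each group mean of 3 samples. Ereg had 0 reads and is not drawn. The samples of the genotypes separate for Btc, Hbegf, Tgfa and Erbb2 and overlap for the others.

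Tgfa, which encodes transforming growth factor alpha, rose most among the members. Tgfa (ENSMUSG00000029999, chromosome 6, 86195223 to 86275719 of GRCm38) stood at 42.9, 56.1 and 58.8 CPM in sgC and at 79.5, 99.0 and 103 CPM in sgPrkci/Prkcz. Each sgPrkci/Prkcz sample lay above each sgC sample. Tgfa had a log2 fold change of 0.83 ± 0.13 (SE; 95% interval 0.55 to 1.10), a 1.77-fold higher level (limma, Benjamini-Hochberg adjusted p = 1.55e-05). Tgfa was called in all 18 alternative settings, with log2 fold changes of 0.69 to 0.99. The tested genes with the most similar profile over the 6 samples were Hdac3 (a histone deacetylase), Hsd17b7 (a sterol-synthesis enzyme) and Selenbp1 (a selenium-binding protein). Their gene-centred log2 profiles differed from that of Tgfa by root mean squares of 0.067, 0.074 and 0.080, the smallest among 7738 genes. This likeness covers 6 samples in 2 genotypes, and Hdac3, for instance, went from 45.2 ± 9.18 to 77.6 ± 7.21 CPM (SD, n = 3).

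Hbegf and Btc rose by smaller amounts. Hbegf, which encodes heparin-binding EGF-like growth factor (chromosome 18, 36504927 to 36515805), stood at 90.5, 77.4 and 86.8 CPM in sgC and at 111, 126 and 114 CPM in sgPrkci/Prkcz. The groups did not overlap, and the log2 fold change was 0.46 ± 0.11 (SE; limma, Benjamini-Hochberg adjusted p = 0.00141). Btc, the betacellulin gene (chromosome 5, 91357261 to 91402994), was the most abundant ligand in every sample. Its levels were 163, 122 and 123 CPM in sgC and 201, 165 and 177 CPM in sgPrkci/Prkcz. The highest sgC sample, replicate 1, came within 2 CPM of the lowest sgPrkci/Prkcz sample. For Btc the log2 fold change was 0.42 ± 0.11 (SE; limma, Benjamini-Hochberg adjusted p = 0.00375), a call lost with limma without trend (adjusted p = 0.109).

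Areg was not called, and Ereg and Epgn were too low to test. Areg, the amphiregulin gene (chromosome 5, 91139599 to 91148432), stood at 81.5, 92.8 and 81.2 CPM in sgC and at 81.8, 82.4 and 97.8 CPM in sgPrkci/Prkcz. The groups overlapped, and in each genotype 2 samples lay within 1 CPM of each other with the remaining one higher. Areg had a log2 fold change of 0.03 ± 0.11 (SE), with a 95% interval of -0.20 to 0.27 (limma, Benjamini-Hochberg adjusted p = 0.851). That interval lies wholly below the one of Tgfa, although the difference between the genes was not itself tested. Ereg, the epiregulin gene (chromosome 5, 91074622 to 91093646), had 0 reads in all 6 samples, which allows up to 0.339 CPM over the sgC libraries and 0.587 CPM over the sgPrkci/Prkcz libraries (3 reads per group, counting error only). Epgn, the epigen gene, had 4, 3 and 1 reads in sgC and 1 read in each sgPrkci/Prkcz sample. Its ratio of pooled CPM was 0.649 with an exact 95% counting interval of 0.111 to 2.71, so no difference was detectable at this depth.

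**Figure D2:**
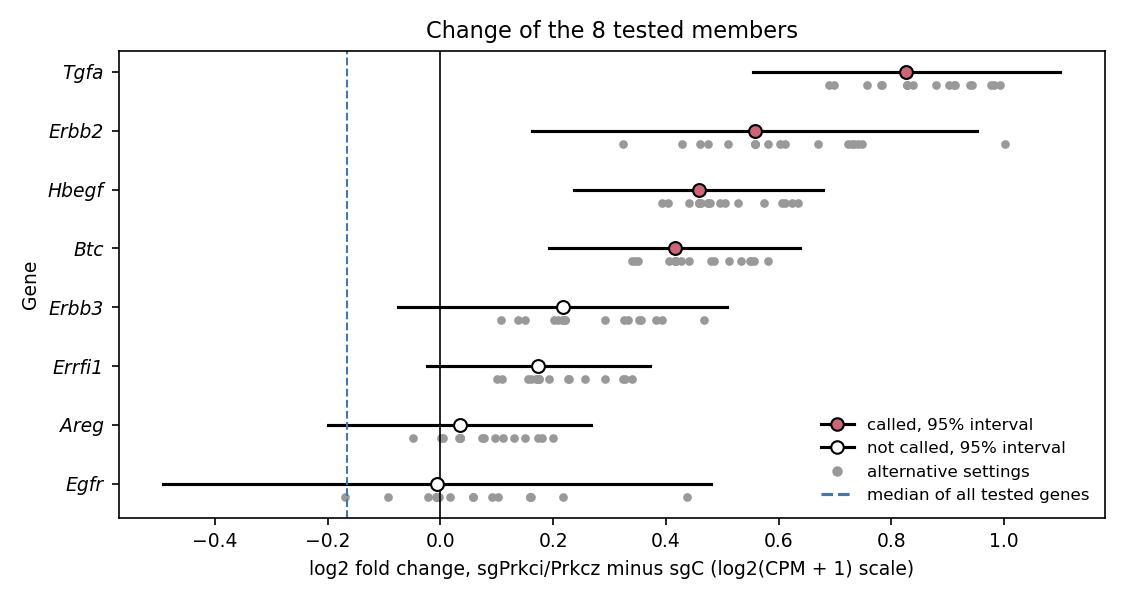
Log2 fold change (sgPrkci/Prkcz minus sgC) of the 8 tested genes with 95% limma intervals, filled where called, and the values under each alternative setting as grey points. The dashed line marks the median of all tested genes, -0.17. All values of Tgfa lie at 0.69 or more, and those of Egfr lie on both sides of 0.

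Summed over the 6 ligand genes, the tags reached 379, 349.7 and 350.5 CPM in sgC and 473, 473 and 493 CPM in sgPrkci/Prkcz. The groups did not overlap, with means of 359.8 ± 16.8 and 479.7 ± 11.5 CPM (SD, n = 3 each). Within this sum Tgfa took a larger share and Areg a smaller one in sgPrkci/Prkcz. Tgfa made up 11.3%, 16.0% and 16.8% of the ligand tags in sgC and 16.8%, 20.9% and 20.9% in sgPrkci/Prkcz, so the highest sgC sample nearly met the lowest sgPrkci/Prkcz sample. Areg made up 21.5%, 26.5% and 23.2% under sgC against 17.3%, 17.4% and 19.8% under sgPrkci/Prkcz, with no overlap. Tags of Tgfa per tag of Areg numbered 0.527, 0.604 and 0.725 under sgC against 0.972, 1.20 and 1.05 under sgPrkci/Prkcz. This ratio does not depend on the scaling of the libraries, and its groups did not overlap. The share of Btc was 37.7% ± 4.55 in sgC and 37.7% ± 4.05 in sgPrkci/Prkcz, and that of Hbegf 23.6% ± 1.34 and 24.4% ± 1.97 (SD, n = 3). These sums and shares are descriptions of genes chosen with earlier results known, and were not tested.

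**Figure D3:**
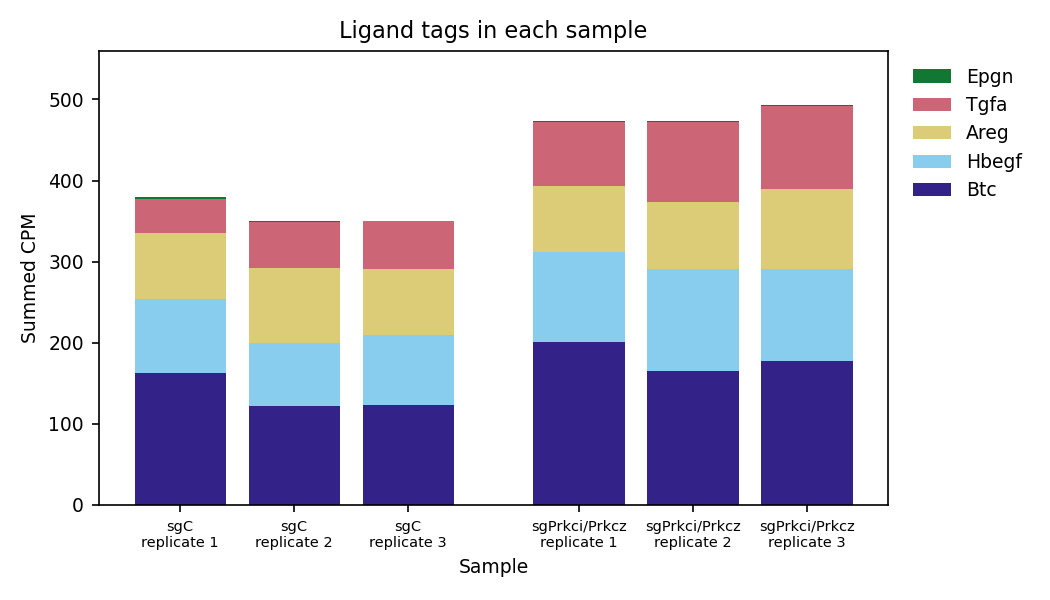
Summed CPM of the ligand genes in each sample, stacked by gene. The 3 sgC samples reach 349.7 to 379 CPM and the 3 sgPrkci/Prkcz samples 473 to 493 CPM, and the Tgfa segment is taller in each sgPrkci/Prkcz sample than in any sgC sample. Epgn is a thin line at the top and Ereg is at 0.

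Promoter sequence from RefSeq (GRCm38.p6) was available for 7 of the 10 genes, in 8 windows, read here as the 250 bases before each transcription start. A pair of risen ligands (Tgfa and Btc) is shown beside Areg and Errfi1, the genes whose windows held a searched motif. Capitals mark TGACGTCA, the full cAMP response element. The other motifs searched, on both strands, were TGANTCA (bound by AP-1 factors) and the NF-kappaB consensus, and no match overlapped another.
Tgfa, chr6:86194972-86195221, plus strand: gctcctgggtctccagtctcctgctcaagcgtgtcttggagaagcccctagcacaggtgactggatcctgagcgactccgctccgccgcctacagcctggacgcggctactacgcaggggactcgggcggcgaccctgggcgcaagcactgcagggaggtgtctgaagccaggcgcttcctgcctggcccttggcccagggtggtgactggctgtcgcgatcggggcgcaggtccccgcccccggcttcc
Btc, chr5:91402995-91403244, minus strand: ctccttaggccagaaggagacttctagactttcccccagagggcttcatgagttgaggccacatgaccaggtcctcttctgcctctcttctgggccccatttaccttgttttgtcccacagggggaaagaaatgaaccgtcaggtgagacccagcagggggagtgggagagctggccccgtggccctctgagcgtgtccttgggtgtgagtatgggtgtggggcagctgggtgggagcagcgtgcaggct
Areg, chr5:91139349-91139598, plus strand: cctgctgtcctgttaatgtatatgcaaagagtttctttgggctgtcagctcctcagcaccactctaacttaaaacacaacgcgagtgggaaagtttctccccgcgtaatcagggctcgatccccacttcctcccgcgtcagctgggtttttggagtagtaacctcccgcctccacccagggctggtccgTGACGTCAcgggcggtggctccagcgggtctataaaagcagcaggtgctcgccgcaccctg
Errfi1, chr4:150854820-150855069, plus strand, second annotated start: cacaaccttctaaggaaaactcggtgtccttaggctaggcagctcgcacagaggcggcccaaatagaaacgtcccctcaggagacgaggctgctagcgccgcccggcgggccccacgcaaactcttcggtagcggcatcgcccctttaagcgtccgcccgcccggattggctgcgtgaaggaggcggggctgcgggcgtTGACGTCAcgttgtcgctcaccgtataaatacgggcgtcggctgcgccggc

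TGACGTCA was found once in the Areg window, from -61 to -54 relative to the start, and once before the second annotated start of Errfi1, from -51 to -44. Areg was called in none of the settings run, and Errfi1 was not called with limma as reported but was with TMM-scaled CPM, with the median change at 0, with edgeR and with DESeq2. The other 6 windows (Tgfa, Btc, Epgn, Egfr, Erbb2 and the first start of Errfi1) held no match to it, and TGANTCA and the NF-kappaB consensus had 0 matches in the 8 windows. Among all 32851 windows of the same length, 1.55% held TGACGTCA, 6.75% TGANTCA and 7.25% the NF-kappaB consensus. A match describes letters in a window and is no evidence of binding.

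Summed over the 3 receptor genes, the tags reached 77.4, 81.4 and 95.3 CPM in sgC and 88.1, 114 and 105 CPM in sgPrkci/Prkcz, so the groups overlapped. Ligand tags per receptor tag numbered 4.90, 4.30 and 3.68 under sgC against 5.37, 4.15 and 4.70 under sgPrkci/Prkcz, which also overlapped. Erbb3 (chromosome 10, 128567523 to 128589652), the neuregulin receptor with little kinase activity, stood at 46.9, 49.9 and 70.2 CPM in sgC and at 57.4, 71.3 and 63.5 CPM in sgPrkci/Prkcz. Replicate 3 of sgC lay within the sgPrkci/Prkcz range, and the other sgC samples below it. Erbb3 had a log2 fold change of 0.22 ± 0.14 (SE; 95% interval -0.07 to 0.51; limma, Benjamini-Hochberg adjusted p = 0.252). It was called with edgeR (0.35; Benjamini-Hochberg adjusted p = 0.0455), with the median change set to 0 (0.38; limma, adjusted p = 0.0398), with chromosome medians set to 0 (0.47; limma, adjusted p = 0.0124) and without sgC replicate 3 (0.39; limma, adjusted p = 0.0431).

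Egfr, the receptor of all 6 ligands, was not called. Egfr (chromosome 11, 16752203 to 16918158) stood at 11.7, 12.5 and 9.92 CPM in sgC and at 10.2, 14.4 and 9.72 CPM in sgPrkci/Prkcz. The lowest and the highest of the 6 values both belonged to sgPrkci/Prkcz. Its log2 fold change was -0.01 ± 0.24 (SE; 95% interval -0.49 to 0.48; limma, Benjamini-Hochberg adjusted p = 0.989), from 15 to 38 reads per sample. An antisense gene, Egfros, lies within Egfr but away from its 3′ end and had 4 pooled reads in sgC and 1 in sgPrkci/Prkcz. The sign of the Egfr value turned with the scaling, and with chromosome medians set to 0 it was 0.44 (limma, Benjamini-Hochberg adjusted p = 0.161).

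Erbb2, the coreceptor without a ligand, was called as risen, but in fewer settings than the risen ligands (13 of 18). Erbb2 (chromosome 11, 98412470 to 98437716) stood at 18.8, 19.0 and 15.2 CPM in sgC and at 20.5, 28.2 and 31.7 CPM in sgPrkci/Prkcz. The groups did not overlap, although sgPrkci/Prkcz replicate 1 lay less than 2 CPM above the highest sgC sample. Erbb2 had a log2 fold change of 0.56 ± 0.19 (SE; limma, Benjamini-Hochberg adjusted p = 0.0246). The limma call was lost without sgC replicate 3 (Benjamini-Hochberg adjusted p = 0.102), without sgPrkci/Prkcz replicate 2 (0.0751) or replicate 3 (0.120), without trend (0.0813) and in 1 random thinning to equal depth (log2 fold change 0.32; 0.248). The 3′ end of Erbb2 shares 9 bases with that of Mien1, a gene on the opposite strand. Mien1 rose from 70.7 ± 9.06 to 130.4 ± 12.7 CPM (SD, n = 3; limma, Benjamini-Hochberg adjusted p = 7.15e-07). The strand setting of the counting is not given in the sources used here, so reads of Erbb2 and Mien1 in the shared bases cannot be told apart and the change of Erbb2 is uncertain. Chromosome 11, which carries Egfr and Erbb2, had a median log2 fold change of -0.44 over 966 tested genes, of which 3.42% rose and 45.8% fell. With chromosome medians set to 0 the log2 fold change of Erbb2 was 1.00.

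Errfi1, whose product binds and inhibits the EGF receptor kinase and is itself induced by growth factor signalling, was the most abundant member. Errfi1 (chromosome 4, 150853919 to 150868892) stood at 173, 197 and 206 CPM in sgC and at 236, 221 and 192 CPM in sgPrkci/Prkcz. The groups overlapped only through sgPrkci/Prkcz replicate 3. For Errfi1 the log2 fold change was 0.17 ± 0.10 (SE; 95% interval -0.02 to 0.37; limma, Benjamini-Hochberg adjusted p = 0.170). It was called with edgeR (0.32; Benjamini-Hochberg adjusted p = 0.00630), with DESeq2 (0.33; adjusted p = 0.0260), with TMM-scaled CPM (0.29; limma, adjusted p = 0.0205) and with the median change set to 0 (0.34; limma, adjusted p = 0.00744).

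By mean level in sgC, the order was Errfi1 (192 ± 17.3 CPM), Btc (136 ± 23.1), Areg (85.2 ± 6.66), Hbegf (84.9 ± 6.75), Erbb3 (55.7 ± 12.7), Tgfa (52.6 ± 8.51), Erbb2 (17.7 ± 2.12), Egfr (11.4 ± 1.31), Epgn (0.893 ± 0.500) and Ereg (0), with SD and n = 3. Areg and Hbegf, and Erbb3 and Tgfa, differed by less than their SD. In sgPrkci/Prkcz, Hbegf (117 ± 8.07 CPM) and Tgfa (93.8 ± 12.5) stood ahead of Areg (87.3 ± 9.07), and Tgfa and Areg differed by less than their SD. Of the rest of the family, Egf itself had 1 read in sgC and 0 in sgPrkci/Prkcz, and the neuregulin genes Nrg2 and Nrg4 had 0 reads in every sample. Nrg1, Nrg3 and Erbb4 were not analysed here.

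Epgn, Ereg, Areg and Btc lie together on chromosome 5 (91027464 to 91402994), next to a run of CXC chemokine genes, and their neighbours moved both ways. Apart from Areg and Btc themselves, 22 genes were tested within 1 Mb of this cluster, of which 6 rose and 7 fell. With limma both are larger shares than the 11.4% and 23.8% of all tested genes, from few genes, and most of the rises were of chemokine genes. Their median log2 fold change was 0.02. The 898 tested genes of chromosome 5 had a median of -0.10. The chemokine gene Cxcl5 rose from 1.91 ± 0.467 to 106 ± 15.1 CPM (SD, n = 3) and Cxcl1 from 4.92 ± 2.85 to 37.4 ± 5.57 CPM, while Cxcl2 went from 4 to 17 pooled reads and Cxcl3 from 1 to 14. Their neighbour Ppbp, a platelet chemokine gene, fell from 9.50 ± 1.55 to 2.75 ± 0.910 CPM. Mthfd2l, a folate enzyme gene between Cxcl2 and Epgn, had a log2 fold change of 0.06 and was not called. On the other side of Btc, Parm1 rose by 0.23 on the log2 scale, close to the threshold (limma, Benjamini-Hochberg adjusted p = 0.0496). Farther out Rassf6 rose (0.68), and Cox18 (-0.80), Cdkl2 (-0.41), Uso1 (-0.25), Naaa (-0.67), Sdad1 (-0.67) and 1 provisional gene model fell. The falls of Cdkl2, Uso1 and Naaa were not called with edgeR (Benjamini-Hochberg adjusted p = 0.112, 0.395 and 0.114), and the provisional model was not tested with it. Among these neighbours edgeR called only Cox18, Ppbp and Sdad1 as fallen. That share was near its background of 18.2%, so the larger share of falls was not kept with edgeR.

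**Figure D4:**
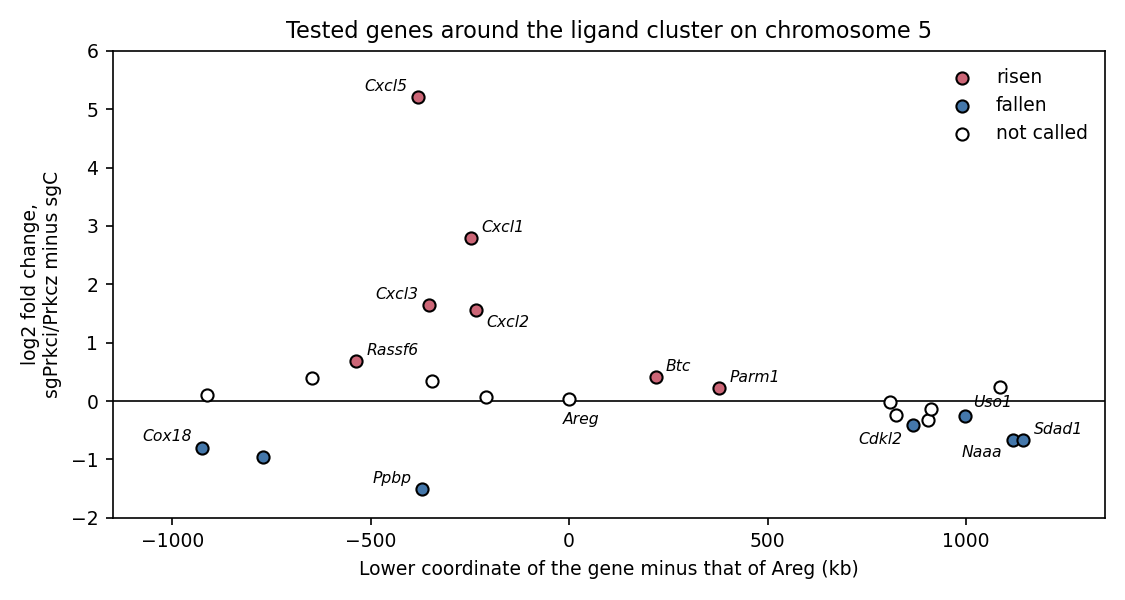
Log2 fold change (sgPrkci/Prkcz minus sgC) of the 24 tested genes within 1 Mb of the Epgn to Btc cluster, by distance along chromosome 5 from Areg in kb. The chemokine genes Cxcl5, Cxcl3, Cxcl1 and Cxcl2 lie high on one side of Areg, which sits near 0, and Btc lies slightly above 0 on the other side.

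Of 10 tested genes that process the ligands, 3 rose and 2 fell (30% and 20%, against 11.4% and 23.8% of all tested genes), so the share that fell was near the background. Adam10, the metalloprotease that releases betacellulin and EGF, rose from 233 ± 22.5 to 349 ± 29.8 CPM (SD, n = 3; log2 fold change 0.58; limma, Benjamini-Hochberg adjusted p = 9.37e-06). Adam15, another metalloprotease gene, rose from 37.8 ± 9.48 to 55.5 ± 12.6 CPM, and Rhbdl2, a rhomboid protease gene, from 7.94 ± 2.34 to 14.5 ± 3.85 CPM. Adam10 was called in 18 of 18 alternative settings, Adam15 in 15 and Rhbdl2 in 13. Adam17, the protease that releases transforming growth factor alpha, amphiregulin and heparin-binding EGF-like growth factor, had 336, 339 and 300 sgC reads against 251, 165 and 229 sgPrkci/Prkcz reads. Its log2 fold change was 0.18 (95% interval -0.10 to 0.46; limma, Benjamini-Hochberg adjusted p = 0.339), and edgeR called it as risen (Benjamini-Hochberg adjusted p = 0.0288). Rhbdf1 (-0.20) and Rhbdf2 (0.48), which encode the pseudoproteases that carry ADAM17 to the surface, were not called. Adam19 had 30, 32 and 40 reads in sgC and 0 in each sgPrkci/Prkcz sample, at least 19.6-fold lower over the pooled reads against a floor of 3. Bace1, a secretase gene, fell by 0.35 on the log2 scale, a call lost when the median change was 0 (limma, Benjamini-Hochberg adjusted p = 0.138) and with edgeR (0.0760).

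Among 25 genes of receptor inhibition and turnover, Errfi1 included, 5 rose and 2 fell, which is 20% and 8% against 11.4% and 23.8% of all tested genes. Once the median change was 0, 12 rose and 0 fell (background 17.4% and 14.4%), and edgeR gave 11 and 0 (19.9% and 18.2%). Cblc, a ubiquitin ligase gene of epithelia, rose from 15.5 ± 3.72 to 38.4 ± 4.26 CPM (SD, n = 3; log2 fold change 1.27; limma, Benjamini-Hochberg adjusted p = 3.88e-06). Its relatives Cbl (0.10) and Cblb (0.30) were not called with limma, and edgeR called Cblb (Benjamini-Hochberg adjusted p = 0.0492). Eps8, a receptor substrate that acts on actin, rose from 528 ± 44.6 to 735 ± 27.8 CPM, and the ubiquitin-binding gene Zfand5 from 115 ± 8.21 to 159 ± 13.4 CPM. The falls were those of the phosphatase gene Ptpn2 (-0.40) and the deubiquitinase gene Usp8 (-0.27), and neither was called with edgeR (Benjamini-Hochberg adjusted p = 0.103 and 0.359). Lrig1, a receptor-binding inhibitor known as a stem cell marker, numbered 14, 12 and 13 reads under sgC against 7, 8 and 5 under sgPrkci/Prkcz. Scaled for depth, these were 4.41 ± 0.414 and 3.88 ± 0.599 CPM, and Lrig1 was not called (-0.15).

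Adaptors and kinases of the signal relay showed 4 rises and 5 falls among 35 tested genes. The 11.4% that rose equalled the share of all tested genes, and 14.3% fell against 23.8%. Once the median change was 0, 8 rose and 1 fell (background 17.4% and 14.4%). Mapk3, which encodes the kinase ERK1, rose from 109 ± 20.9 to 265 ± 10.1 CPM (SD, n = 3; log2 fold change 1.29; limma, Benjamini-Hochberg adjusted p = 3.37e-10). The adaptor gene Nck2 rose from 43.8 ± 4.86 to 70.3 ± 4.30 CPM. The falls included Pik3cb (-0.50), a phosphoinositide 3-kinase catalytic subunit, Ksr1 (-1.28), a scaffold of the RAF and MEK kinases, and the adaptor Shc1 (-0.44). Pik3cb and Shc1 lost their calls once the median change was 0 (limma, Benjamini-Hochberg adjusted p = 0.0740 and 0.148). With edgeR Pik3cb kept its call (Benjamini-Hochberg adjusted p = 0.0425) and Shc1 did not (0.122). Pik3cb was called in 14 of 18 alternatives and Shc1 in 9. Ksr1, on chromosome 11, was called in 11 of the 16 alternative settings that tested it, and not with chromosome medians set to 0 (limma, Benjamini-Hochberg adjusted p = 0.0976).

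Of 32 tested ERK-dependent genes 15 rose and 6 fell, which is 46.9% and 18.8% against 11.4% and 23.8% of all tested genes. Once the median change was 0, 17 rose and 3 fell (background 17.4% and 14.4%). The list was assembled with earlier results of these data known, and it was not tested as a set. Its median log2 fold change was 0.27, against -0.17 for all genes. Ier3, an early response gene, rose from 615 ± 85.7 to 1741 ± 8.75 CPM (SD, n = 3; log2 fold change 1.51), Elf3, an epithelial transcription factor gene, from 159 ± 15.7 to 312 ± 50.9 CPM (0.95), and Egr1, an early zinc finger gene, from 37.8 ± 3.17 to 63.3 ± 9.65 CPM (0.72). Their limma Benjamini-Hochberg adjusted p-values were 7.23e-15, 3.66e-08 and 1.99e-04. The falls with the smallest adjusted p were those of Ccnd1, the cyclin D1 gene, from 991 ± 139 to 521 ± 52.4 CPM (-0.92), Ier2 (-0.92) and the feedback inhibitor gene Spry1 (-0.70). The remaining falls were those of Etv5 (-0.70), Etv4 (-0.37) and Epha2 (-0.48), none called with edgeR (Benjamini-Hochberg adjusted p = 0.0572, 0.206 and 0.106). Genes related to Spry1 went the other way: Spry2 (0.57), Spry4 (0.61), Spred1 (0.31) and the phosphatase gene Dusp7 (0.79) were called as risen. Further rises of the list are counted but not named. Dusp4, Dusp5, Spred2 and Spred3 were not called with limma. The ERK phosphatase gene Dusp6, a commonly used readout, had 412, 441 and 388 sgC reads against 216, 206 and 202 sgPrkci/Prkcz reads. Its log2 fold change was -0.19 (95% interval -0.40 to 0.01; limma, Benjamini-Hochberg adjusted p = 0.128). Many of these genes also answer to other signals, so the list describes no single pathway.

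**Figure D5:**
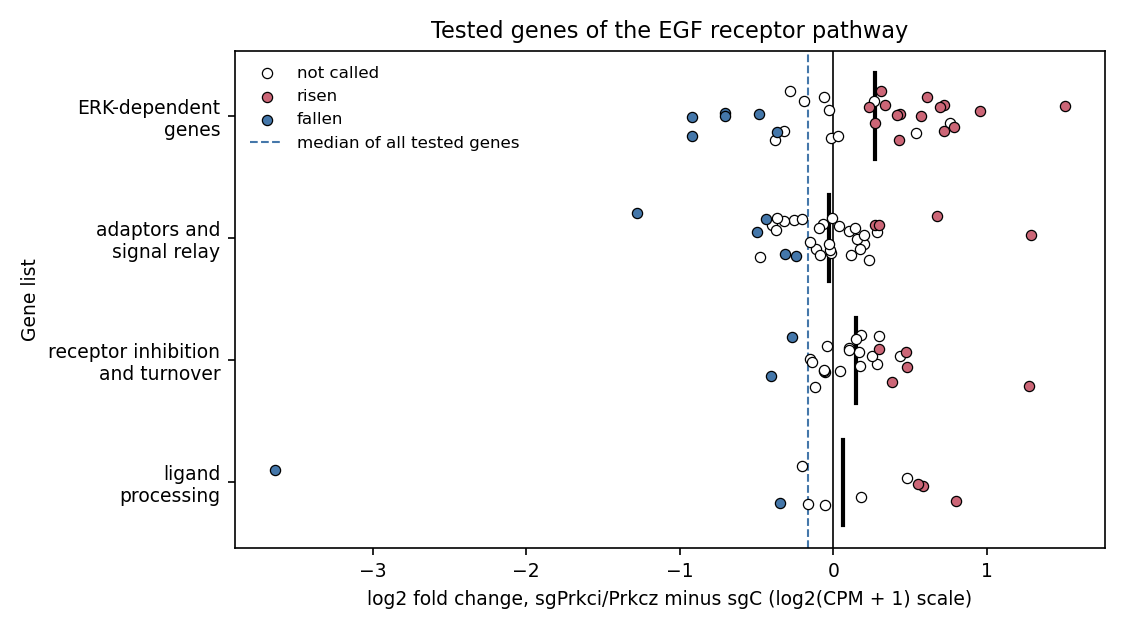
Log2 fold change (sgPrkci/Prkcz minus sgC) of each tested gene in 4 lists of the EGF receptor pathway, filled where called, with a thick bar at the list's median. The medians run from -0.03 for adaptors and signal relay to 0.27 for ERK-dependent genes, and the dashed line marks the median of all tested genes, -0.17.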

How the data were processed

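Gene expression was measured by 3′ tag sequencing in 6 mouse samples, 3 per genotype, from 200 ng of RNA each, read as single ends of 75 bases, per the labels' protocols. The authors deposited 1 table of CPM values per Ensembl identifier. Per the submitters' processing notes, reads were placed on GRCm38. The sources used here do not give the aligner, counting tool or strand setting, nor whether the kit's optional molecular identifiers were counted. Columns were matched to samples by title, and symbols and coordinates came from GENCODE M21. Tumors and further replicates mentioned in the series' design text were not analysed here.

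Divided by its library's lowest value above 0, each deposited CPM gave a whole number within a relative tolerance of 1e-06 (100% of values), and these numbers were taken as reads. One read was worth 0.328 to 0.648 CPM. For the main test, log2(CPM + 1) values of the 12207 genes that reached 1 CPM in 3 or more samples went into limma (trended prior variance, robust) with Benjamini-Hochberg adjustment. The edgeR quasi-likelihood test on recovered reads, which called 3754 genes, DESeq2, other scalings, filters, pseudocounts, thinning and each sample left out were alternatives. Fits ran in R 4.3.3 (DESeq2 1.42.0, edgeR 4.0.16, limma 3.58.1). The limma and edgeR code was also run on simulated reads with far fewer changed genes than were called here, and no result rests on that run.

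The members, the gene lists and the tests were chosen with earlier results of these data known. Named were all members, their family, up to 3 called genes per list and direction with the smallest adjusted p, called genes near the chromosome 5 cluster, and the 3 profiles most like that of the member that rose most. Genes named beyond this rule were chosen after their values were seen. They include Mien1, Mthfd2l, Adam17, Rhbdf1, Rhbdf2, Cbl, Cblb, Lrig1, Met, Dusp6, Dusp7, Spry2, Spry4, Spred1, Etv4, Etv5 and Epha2. Some genes of the signal relay list are counted but not reported here by name. Replicates of a genotype differed by more than sampling noise (chi-square per degree of freedom 1.56 to 3.40). Separate cultures are not stated in the labels, so the p-values reflect only how these samples vary, possibly for technical reasons. Counting intervals and floors cover counting error only.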

Additional observations from a re-analysis of the deposited data

How the results depend on the processing

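Across 18 alternatives, Tgfa and Hbegf were called in each, Btc in 17 and Erbb2 in 13, and no member was called as fallen. The number of risen members was 2 with limma without trend, 3 to 4 with each sample left out, and at most 6. Egfr, never called, changed sign with TMM-scaled CPM (0.10), quantile normalization (0.22), the median change set to 0 (0.16), chromosome medians set to 0 (0.44), edgeR (0.16) and DESeq2 (0.16), and had values from -0.17 to 0.092 with samples left out (0.092 without sgPrkci/Prkcz replicate 3). Areg, never called, had values from -0.049 (without sgPrkci/Prkcz replicate 3) to 0.10 with samples left out. Of 101 tested pathway genes other than members 27 rose and 15 fell (26.7% and 14.9%, against 11.4% and 23.8% of all tested genes). With limma without trend 15 rose (background 7.45%), and 21 to 25 with samples left out. The share of all tested genes that fell also changed with the setting, and is given in brackets. The fallen numbered 7 with TMM-scaled CPM (17.6%), 8 with quantile normalization (15.9%) and 4 with chromosome medians set to 0 (13.1%). With the median change set to 0 they numbered 5 (14.4%), and 39 rose (background 17.4%). They numbered 5 with limma without trend (16.2%), 5 with edgeR (18.2%), 3 with DESeq2 (8.89%), and 9 to 15 with samples left out. The causes were not tested. The median change of all genes was -0.17 as reported, -0.06 with TMM and -0.01 with quantile normalization. Depth limits Epgn, Ereg and Egfr. No paired analysis was possible because the labels give the genotypes no shared replicate numbers.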

Other observations

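Among 17 tested receptor tyrosine kinase genes outside the ERBB family, 6 rose and 2 fell, against 11.4% and 23.8% of all tested genes. Once the median change was 0, 7 rose and 0 fell (background 17.4% and 14.4%). The ephrin receptor gene Ephb3 rose from 21.5 ± 2.59 to 54.5 ± 4.67 CPM (SD, n = 3; log2 fold change 1.30; limma, Benjamini-Hochberg adjusted p = 1.11e-07), and Ephb2 from 19.6 ± 3.07 to 44.2 ± 2.28 CPM (1.14). Ddr1, a collagen receptor gene, rose from 166 ± 15.1 to 277 ± 24.5 CPM (0.73). The receptor gene Igf1r fell from 147 ± 8.93 to 112 ± 9.77 CPM (-0.39), and the Wnt coreceptor gene Ryk from 229.9 ± 14.1 to 189 ± 5.70 CPM (-0.28). Both falls lost their calls once the median change was 0 (limma, Benjamini-Hochberg adjusted p = 0.0903 and 0.364). With edgeR Igf1r kept its call (Benjamini-Hochberg adjusted p = 0.0475) and Ryk did not (0.231). Igf1r was called in 14 of 18 alternatives and Ryk in 10. Met, the receptor gene for hepatocyte growth factor, had 273, 260 and 240 sgC reads against 123, 144 and 115 sgPrkci/Prkcz reads, and was not called (-0.22; limma, Benjamini-Hochberg adjusted p = 0.124).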
